A study of Homo sapiens with 8 samples.

Results

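The ATP-binding cassette (ABC) transporter family was described in A549 cells, an established human lung adenocarcinoma line, in which the long non-coding RNA AFAP1-AS1 was raised or lowered. Members were the genes whose symbol is ABC, a letter A to G and a number, which gave 44 of the 17056 genes in the deposited table. By subfamily these were 12 ABCA, 9 ABCB, 11 ABCC, 4 ABCD, 1 ABCE, 3 ABCF and 4 ABCG genes. ABC proteins bind and hydrolyse ATP to move substrates across membranes. Exporters of subfamilies B, C and G remove drugs and drug conjugates from cells and are known for multidrug resistance, which the series' title names as its interest. Other members move lipids and sterols, work in mitochondria, peroxisomes or lysosomes, or, in subfamilies E and F, have no membrane part and act on ribosomes.

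The 4 groups had 2 RNA-seq libraries each. The overexpression libraries (OE in the sample titles) were labelled as overexpressing AFAP1-AS1, and the knockdown libraries (ASO in the titles) as AFAP1-AS1 knockdown. The knockdown control libraries (ASONC) carry the label negative control, and the vector control libraries a label that names the vector only. The labels give no clone, dose or time and do not expand ASO. Whether the libraries of a group are separate cultures is not stated, so that a p-value reflects library-to-library spread that could be technical. AFAP1-AS1 itself was not analysed here, so the level of the targeted RNA does not check the labels. In such bulk RNA, fewer cells with a transcript and less of it per cell cannot be told apart.

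The values are FPKM (sequenced fragments corrected for the length of the transcript and the depth of the library), a level per length, so genes can be ranked by it. Reads recovered from these values summed to between 33662221 and 37508996 per library. Of the 10 genes chosen to mark A549 epithelium, 9 averaged at least 1 FPKM. The 5 markers of alveolar type 2 cells summed to between 0.077 and 0.30 FPKM per library, and the 4 endothelial markers to between 0.128 and 1.79 FPKM. Of 6 fibroblast markers COL1A1 alone averaged at least 1 FPKM, and of the 4 leukocyte markers analysed here CD14 and CD68 did. Those 4 summed to 51.6 and 53.0 FPKM in the overexpression libraries, 67.9 and 66.5 FPKM in the knockdown libraries, 91.1 and 92.0 FPKM in the knockdown control libraries, and 50.4 and 52.1 FPKM in the vector control libraries. CD68, a lysosomal protein, made up at least 48.8 FPKM of each sum. The sum was thus higher in the knockdown and knockdown control libraries, in which ABCC2, ABCC3 and ABCC1 were lower than in the overexpression and vector control libraries, and its part in their values was not tested. At similar depth, 1435 and 1341 genes were at 0 in the knockdown control libraries, but 2205 to 2327 in each of the others.

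Of the 44 members, 24 averaged at least 1 FPKM over the 8 libraries and were tested, and 20 fell under that minimum. Just inside the minimum were ABCB9 at 1.15 and ABCA12 at 1.09 FPKM, and just outside it ABCA5 at 0.849 and ABCC8 at 0.571 FPKM. Multidrug resistance-associated proteins led the family in vector control cells. ABCC2 (MRP2), which exports glutathione and glucuronide conjugates, averaged 104 FPKM and lay above 96.8% of all genes. ABCC3 (MRP3), an exporter of organic anions and bile salts, averaged 81.5 FPKM, and ABCC1 (MRP1), which exports leukotriene C4 and glutathione conjugates, averaged 63.3 FPKM. The ribosome recycling factor ABCE1 (45.5 FPKM) and the translation initiation factor ABCF1 (40.5 FPKM) came next. Lower down stood ABCC4, ABCF3, ABCG2, ABCD3 and ABCB6, between 20.3 and 12.1 FPKM. The other 14 tested members lay between 8.33 FPKM for ABCA3 and 0.925 FPKM for ABCB9. Of the drug exporters best known in the clinic, ABCG2 (breast cancer resistance protein) averaged 14.6 FPKM in vector control cells and ABCB1 (P-glycoprotein) 0.124 FPKM.

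**Figure D1:**
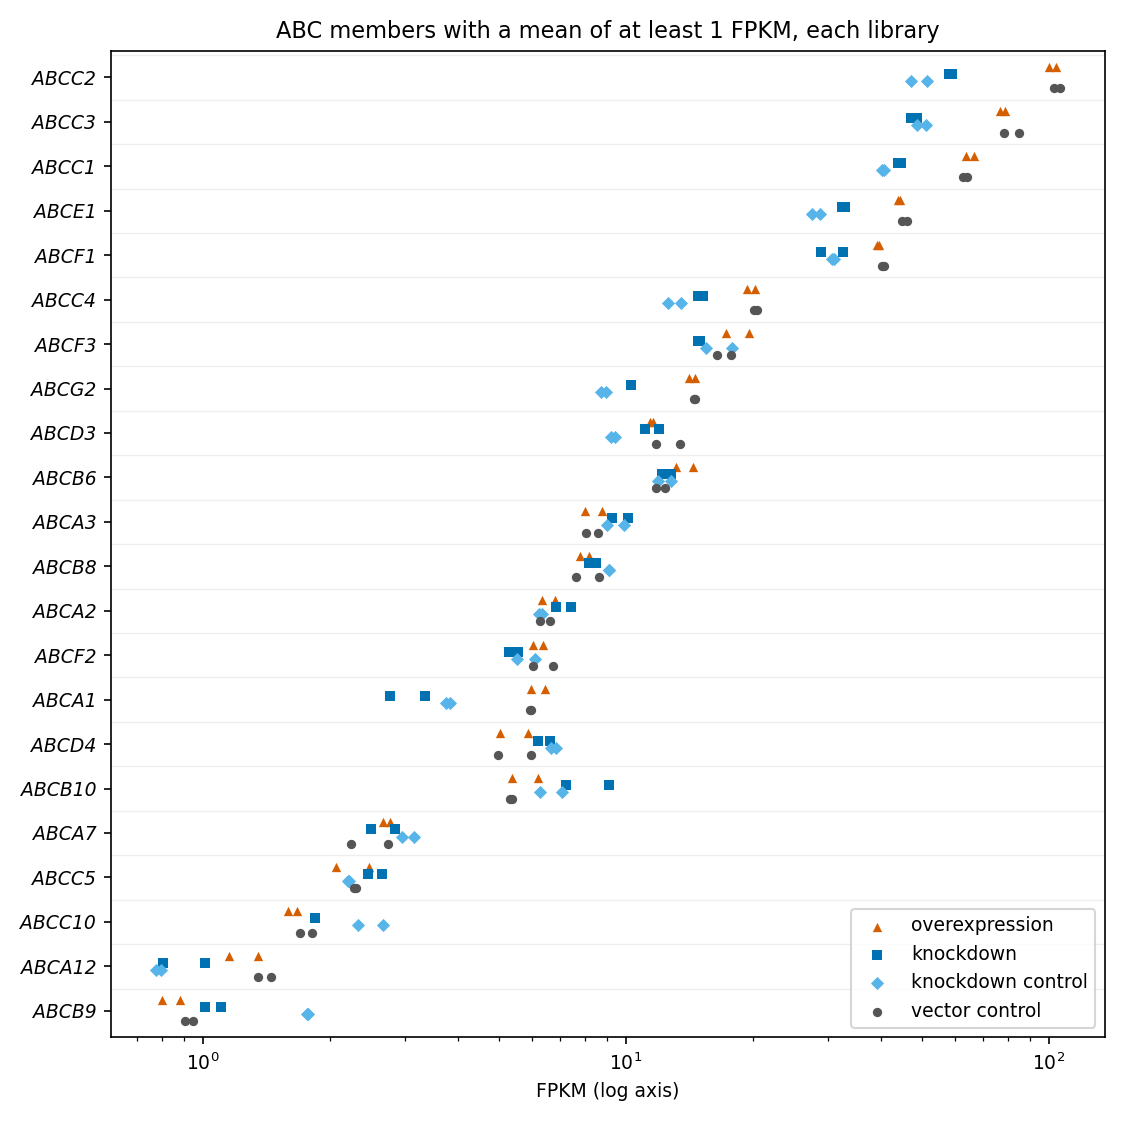
FPKM on a log axis of 22 of the 24 members that averaged at least 1 FPKM, with a point for each of the 2 libraries of a group. ABCC2, ABCC3 and ABCC1 stand at the top, and their overexpression and vector control libraries lie above all of their knockdown and knockdown control libraries.

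The family's FPKM summed to 479 and 467 in the overexpression libraries, 344 and 349 in the knockdown libraries, 332 and 326 in the knockdown control libraries, and 486 and 470 in the vector control libraries. The 3 highest members held 52.2% and 51.5% of that sum in the overexpression libraries, 44.3% and 42.9% in the knockdown libraries, 43.1% and 42.0% in the knockdown control libraries, and 52.5% and 51.7% in the vector control libraries. Both controls therefore differed in the summed level of the family by more than either manipulation differed from its own control. In knockdown control library 2 the order of ABCC2 and ABCC3 was exchanged, with 48.9 FPKM for ABCC3 and 47.1 FPKM for ABCC2.

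Promoter sequences from RefSeq (GRCh38.p14), the 250 bases before each annotated start, were matched to 34 members. Those printed belong to members the results turn on: ABCC2 and ABCG2, drug exporters that were lower in knockdown and knockdown control cells than in vector control cells, ABCD3, which was lower in the knockdown control, and ABCB10, which was higher in both. Capitals mark the GC box letters GGGCGG, searched on both strands with overlaps allowed. Chromosomal positions are ABCC2 chr10:99782390-99782639 (plus strand), ABCG2 chr4:88231627-88231876 (minus strand, the most upstream of 5 starts), ABCD3 chr1:94418139-94418388 (plus strand) and ABCB10 chr1:229558708-229558957 (minus strand).
ABCC2: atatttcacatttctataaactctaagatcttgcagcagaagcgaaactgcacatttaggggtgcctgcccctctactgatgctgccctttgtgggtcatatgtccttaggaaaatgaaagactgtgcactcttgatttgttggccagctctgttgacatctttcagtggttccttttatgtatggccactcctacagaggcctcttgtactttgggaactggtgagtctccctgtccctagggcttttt
ABCG2: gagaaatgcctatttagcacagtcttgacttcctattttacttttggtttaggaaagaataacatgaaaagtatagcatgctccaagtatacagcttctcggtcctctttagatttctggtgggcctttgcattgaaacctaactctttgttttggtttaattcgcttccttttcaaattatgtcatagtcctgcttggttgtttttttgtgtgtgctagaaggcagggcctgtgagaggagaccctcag
ABCD3: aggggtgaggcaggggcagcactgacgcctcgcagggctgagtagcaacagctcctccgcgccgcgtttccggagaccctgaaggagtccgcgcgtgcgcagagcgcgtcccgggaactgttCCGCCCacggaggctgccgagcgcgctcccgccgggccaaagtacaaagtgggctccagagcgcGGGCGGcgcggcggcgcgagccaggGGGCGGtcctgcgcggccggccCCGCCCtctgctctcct
ABCB10: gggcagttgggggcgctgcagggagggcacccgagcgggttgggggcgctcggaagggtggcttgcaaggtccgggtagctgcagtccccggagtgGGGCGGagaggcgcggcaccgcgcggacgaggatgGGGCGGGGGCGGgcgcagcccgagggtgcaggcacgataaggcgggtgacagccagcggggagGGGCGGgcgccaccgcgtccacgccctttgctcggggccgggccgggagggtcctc
These windows differ in base composition, with 45.6% G and C for ABCC2, against 74.4% for ABCD3 and 77.2% for ABCB10. The GC box letters occurred 4 times each in the ABCD3 and ABCB10 windows and not in the ABCC2 and ABCG2 windows printed. For ABCG2 this depends on the start: of its 5 windows, those at chr4:88158860-88159109 and chr4:88158910-88159159 held 2 GC boxes each, at 72.4% and 71.2% G and C. They occurred in 21 of 34 members (61.8%) and in 46.2% of all 27305 genes with a promoter. The core letters TGACNNNGC of the antioxidant response element, searched the same way, occurred in 9 of 34 members (26.5%), among them ABCC4, ABCC10, ABCB6, ABCB9 and ABCF1, and in 13.2% of all genes. CCAAT occurred in 11 of 34 members (32.4%) and in 37.0% of all genes. These matches describe the letters of the windows only. A gene counted if any of its windows held the letters. The number of windows per gene was not matched between the members and all genes.

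The comparison of overexpression with vector control asks whether the labelled overexpression of AFAP1-AS1 goes with a change in these transporters. No member passed the test. All 7 tested drug exporters lay within 0.07 of no change on the log2(FPKM + 1) scale, with a median of -0.03. Of 10648 genes tested with limma, 7 (0.0657%) had an adjusted p below 0.05, all of them higher, against 0 of the 24 tested members. Log2 fold changes of the members ran from -0.12 to 0.17 with a median of -0.02, beside a median of 0.00 over all genes tested. With voom on the recovered reads, a limma fit of weighted log counts, 0 members were called as well, beside 0.254% of all genes.

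ABCC2 had 104 and 100 FPKM in the overexpression libraries, against 106 and 103 FPKM in the vector control libraries. The groups overlapped. Its log2 fold change was -0.03 (SE 0.05, 95% interval -0.13 to 0.07). ABCG2 had 14.6 and 14.1 FPKM in the overexpression libraries, against 14.5 and 14.6 FPKM in the vector control libraries, a log2 fold change of -0.02 (SE 0.06, 95% interval -0.14 to 0.10). ABCC1 (0.04, SE 0.04, 95% interval -0.05 to 0.13) and ABCC3 (-0.07, SE 0.05, 95% interval -0.17 to 0.04) likewise overlapped between the groups. The 4 intervals, each for 1 gene on its own, ran between -0.17 and 0.13 and reflect library-to-library spread only. ABCB6, a porphyrin transporter, was the single member with an unadjusted p below 0.05. It had 13.1 and 14.4 FPKM in the overexpression libraries, against 11.8 and 12.4 FPKM in the vector control libraries. The limma adjusted p was 0.615.

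The comparison of knockdown with knockdown control asks the reverse question, and here 7 members passed, 5 of them higher. ABCC2, ABCC4, ABCG2, ABCD3 and ABCE1 rose by 0.19 to 0.29 on the log2 scale, and ABCB9 and ABCC10 fell. Of all genes tested with limma, 22.2% had an adjusted p below 0.05, 11.3% higher and 10.9% lower, beside 7 of 24 members (29.2%), so the members' share was near the background. The members' median log2 fold change was 0.02, as it was over all genes.

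Among drug exporters, 3 rose, 1 fell and 3 did not pass. ABCC2 had 59.1 and 58.2 FPKM in the knockdown libraries, against 51.4 and 47.1 FPKM in the knockdown control libraries, and both knockdown libraries were above both controls. Its log2 fold change was 0.25 (SE 0.05, limma adjusted p 0.00349), and it passed in all 19 alternative settings that were run. ABCC4 (MRP4), which exports cyclic nucleotides and prostaglandins, had 15.2 and 14.8 FPKM in the knockdown libraries, against 13.5 and 12.6 FPKM in the knockdown control libraries (log2 fold change 0.19, SE 0.06, limma adjusted p 0.0280). ABCG2 had 10.3 FPKM in both knockdown libraries, against 8.74 and 8.97 FPKM in the knockdown control libraries (0.20, SE 0.06, limma adjusted p 0.0252). The groups of these exporters did not overlap.

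ABCC10 (MRP7), an exporter with taxanes among its substrates, moved the other way. It had 1.84 FPKM in both knockdown libraries, against 2.66 and 2.33 FPKM in the knockdown control libraries, and fell by 0.30 on the log2 scale (SE 0.09, limma adjusted p 0.0308). ABCC1 had 44.6 and 44.1 FPKM in the knockdown libraries, against 40.4 and 40.8 FPKM in the knockdown control libraries. Its log2 fold change of 0.12 (SE 0.04) missed the threshold at a limma adjusted p of 0.0520, and it passed in 7 of 19 alternative settings. ABCC3 had 48.8 and 47.3 FPKM in the knockdown libraries, against 51.3 and 48.9 FPKM in the knockdown control libraries. That difference of -0.06 (SE 0.05) did not pass (limma adjusted p 0.420), although the groups did not overlap. ABCC5, an exporter of cyclic nucleotides, had a log2 fold change of 0.14 (limma adjusted p 0.279).

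Outside the drug exporters, ABCD3 (PMP70), which carries branched-chain and dicarboxylic fatty acids into peroxisomes, had 11.1 and 12.0 FPKM in the knockdown libraries, against 9.20 and 9.44 FPKM in the knockdown control libraries. It rose by 0.29 on the log2 scale (SE 0.07, limma adjusted p 0.0128). ABCE1, which splits ribosomes after termination, had 32.5 and 32.9 FPKM in the knockdown libraries, against 27.6 and 28.7 FPKM in the knockdown control libraries (0.21, SE 0.04, limma adjusted p 0.00567). ABCB9, a lysosomal peptide transporter, had 1.10 and 1.01 FPKM in the knockdown libraries, against 1.76 and 1.77 FPKM in the knockdown control libraries, and fell by 0.43 (SE 0.09, limma adjusted p 0.00623). It had passed the minimum through the knockdown control libraries, which favours such a fall. None of the 5 lipid and sterol transporters and none of the 4 mitochondrial members passed. The nearest was ABCA1, which loads cholesterol and phospholipid onto apolipoprotein A-I, at 2.77 and 3.35 FPKM in the knockdown libraries, against 3.84 and 3.75 FPKM in the knockdown control libraries (-0.24, SE 0.08, limma adjusted p 0.0541).

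Several of these calls were lost when a library of either group was left out. Such a fit leaves 1 library in that group, so a lost call does not show that it rested on the library left out. With each compared library left out in turn, ABCG2 had log2 fold changes of 0.18 to 0.21 and ABCB9 of -0.46 to -0.40. Those of ABCC4 were 0.15 to 0.24, of ABCD3 0.23 to 0.34 and of ABCC10 -0.37 to -0.23. Without knockdown library 2 the count was 3, and without knockdown control library 1 it was 4. ABCB9 missed the threshold without knockdown library 2 (limma adjusted p 0.0510), and ABCD3 without knockdown library 2 (0.108) or knockdown control library 1 (0.0643). ABCC4 missed it without either knockdown library or without knockdown control library 2 (limma adjusted p 0.0775 to 0.166), ABCG2 without any of the 4 libraries compared (0.0685 to 0.103), and ABCC10 without either knockdown library or knockdown control library 1 (0.103 to 0.177). ABCC2 and ABCE1 passed whichever library was left out.

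**Figure D2:**
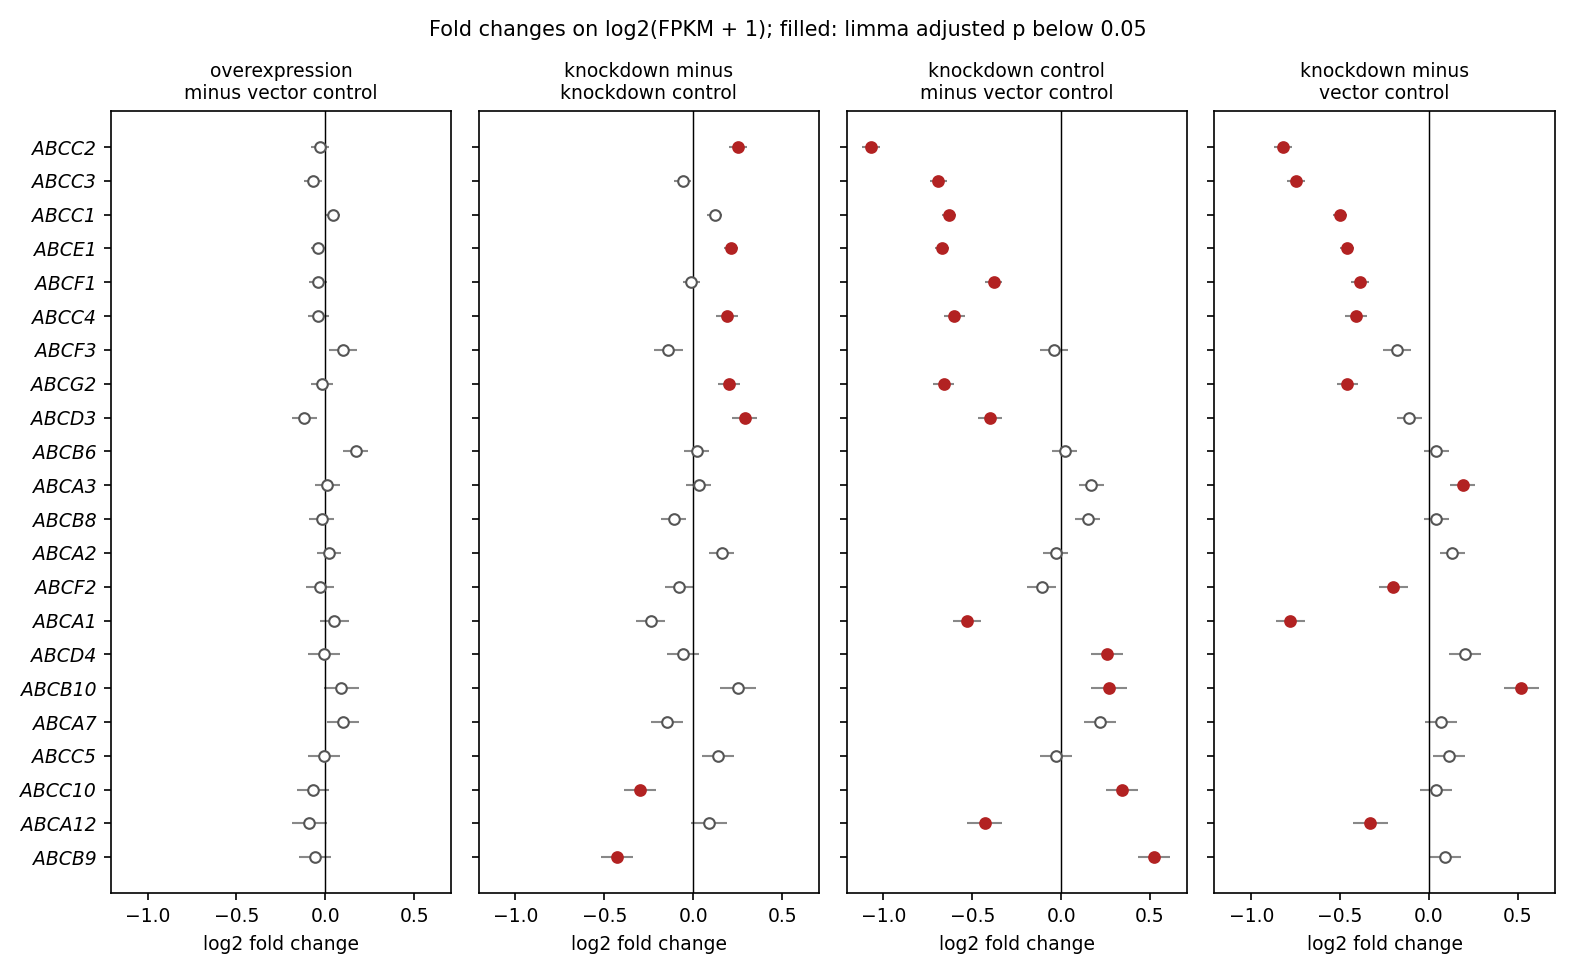
Log2 fold changes on the log2(FPKM + 1) scale of 22 of the 24 tested members in 4 comparisons, ordered by vector control level. Bars are standard errors and filled points have a limma adjusted p below 0.05: 0 in overexpression minus vector control, 7 in knockdown minus knockdown control, 14 in knockdown control minus vector control and 12 in knockdown minus vector control.

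The largest single difference among the tested members was that of ABCC2 between the controls, and the level of the knockdown control is the base of the knockdown comparison. In knockdown control cells ABCC2 fell by 1.07 on the log2 scale relative to vector control cells, and ABCC1, ABCC3, ABCC4 and ABCG2 fell by 0.60 to 0.69. Of the members, 4 rose and 10 fell (58.3%), whereas 68.6% of all genes tested with limma were called, 36.8% higher and 31.8% lower. The members' median was -0.07, beside 0.04 over all genes, and that of the drug exporters was -0.63. The labels give no batch, so which construct a group carried and when it was made or sequenced cannot be told apart. This comparison shares the knockdown control libraries with the previous one and the vector control libraries with the others.

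Drug exporters divided into 5 that fell, 1 that rose and 1 that did not pass. ABCC2 had 51.4 and 47.1 FPKM in the knockdown control libraries, against 106 and 103 FPKM in the vector control libraries (log2 fold change -1.07, SE 0.05, limma adjusted p 5.74e-09). ABCC3 had 51.3 and 48.9 FPKM in the knockdown control libraries, against 84.8 and 78.2 FPKM in the vector control libraries (-0.69, SE 0.05, limma adjusted p 1.61e-07). ABCC1 had 40.4 and 40.8 FPKM in the knockdown control libraries, against 64.1 and 62.6 FPKM in the vector control libraries (-0.63, SE 0.04, limma adjusted p 1.03e-07). For each of these 3 leading exporters every knockdown control library was far below every vector control library.

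ABCG2 had 8.74 and 8.97 FPKM in the knockdown control libraries, against 14.5 and 14.6 FPKM in the vector control libraries (-0.66, SE 0.06, limma adjusted p 7.14e-07). ABCC4 had 13.5 and 12.6 FPKM in the knockdown control libraries, against 20.1 and 20.4 FPKM in the vector control libraries (-0.60, SE 0.06, limma adjusted p 1.56e-06). All 5 of these calls held in each of the 19 alternative settings. ABCC10 rose, with 2.66 and 2.33 FPKM in the knockdown control libraries, against 1.81 and 1.70 FPKM in the vector control libraries (0.34, SE 0.09, limma adjusted p 0.00429). ABCC5 had 2.20 and 2.22 FPKM in the knockdown control libraries, against 2.30 and 2.28 FPKM in the vector control libraries: it did not pass (-0.03, limma adjusted p 0.748).

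Of the ribosome-associated members, ABCE1 and ABCF1 fell and ABCF2 and ABCF3 did not pass. ABCE1 had 27.6 and 28.7 FPKM in the knockdown control libraries, against 44.9 and 46.1 FPKM in the vector control libraries (-0.67, SE 0.04, limma adjusted p 8.89e-08). ABCF1, which binds the initiation factor eIF2, had 31.1 and 30.7 FPKM in the knockdown control libraries, against 40.7 and 40.4 FPKM in the vector control libraries (-0.38, SE 0.05, limma adjusted p 5.44e-05). ABCF2 (-0.11, limma adjusted p 0.200) and ABCF3 (-0.04, limma adjusted p 0.695) overlapped between the groups. Both were called lower after a correction for transcript length and GC content (-0.21, limma adjusted p 0.0304, and -0.26, 0.0112) and after each library was rescaled to the same FPKM sum (-0.30, limma adjusted p 0.00460, and -0.24, 0.0153).

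Of the 5 tested lipid and sterol transporters, 2 fell and 3 did not pass. ABCA1 had 3.84 and 3.75 FPKM in the knockdown control libraries, against 5.95 and 5.94 FPKM in the vector control libraries (-0.53, SE 0.08, limma adjusted p 1.14e-04). ABCA12, which moves glucosylceramide into the lamellar granules of keratinocytes, had 0.774 and 0.795 FPKM in the knockdown control libraries, against 1.45 and 1.35 FPKM in the vector control libraries (-0.43, SE 0.10, limma adjusted p 0.00236). Since ABCA12 passed the minimum through the overexpression and vector control libraries, the minimum favoured such a fall. ABCA3, the phospholipid transporter of alveolar lamellar bodies, had a log2 fold change of 0.17 (limma adjusted p 0.0616), ABCA7 of 0.22 (0.0529) and ABCA2 of -0.03 (0.704).

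Organelle members moved in both directions. ABCD3 fell, with 9.20 and 9.44 FPKM in the knockdown control libraries, against 13.4 and 11.8 FPKM in the vector control libraries (-0.40, SE 0.07, limma adjusted p 2.90e-04). ABCD4, which takes part in lysosomal release of cobalamin, rose with 6.82 and 6.64 FPKM in the knockdown control libraries, against 5.95 and 4.99 FPKM in the vector control libraries (0.26, SE 0.09, limma adjusted p 0.0212). ABCB10, a mitochondrial transporter tied to haem synthesis, had 6.28 and 7.05 FPKM in the knockdown control libraries, against 5.31 and 5.38 FPKM in the vector control libraries (0.27, SE 0.10, limma adjusted p 0.0299). ABCB9 had 1.76 and 1.77 FPKM in the knockdown control libraries, against 0.945 and 0.906 FPKM in the vector control libraries, the largest rise among the tested members (0.52, SE 0.09, limma adjusted p 2.86e-04). Since ABCB9 passed the minimum through these knockdown control libraries, the minimum favoured such a rise. Of the mitochondrial members, ABCB6 and ABCB8 did not pass. ABCB10 missed the threshold without knockdown control library 2 (limma adjusted p 0.184) or either vector control library (0.0788 and 0.0964), and ABCD4 without either knockdown control library (0.0567 and 0.0859) or vector control library 2 (0.197).

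Knockdown cells also stood below vector control cells in the main exporters, so the values of the knockdown libraries lay between those of the controls for ABCC2, ABCC1, ABCC4, ABCG2 and ABCE1. Of the members, 2 rose and 10 fell, beside 62.9% of all genes tested with limma (34.1% higher and 28.8% lower), with a median of -0.12, against 0.03 over all genes. ABCC2 fell by 0.82 (SE 0.05, limma adjusted p 8.38e-08), ABCC3 by 0.75 (SE 0.05, limma adjusted p 1.80e-07) and ABCC1 by 0.50 (SE 0.04, limma adjusted p 1.06e-06). ABCE1 and ABCG2 each fell by 0.46, ABCC4 by 0.41, ABCF1 by 0.39 and ABCA12 by 0.33. The minimum favoured the fall of ABCA12, which passed it through the overexpression and vector control libraries. The knockdown and vector control libraries also enter the comparisons above.

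ABCA1 had 2.77 and 3.35 FPKM in the knockdown libraries, against 5.95 and 5.94 FPKM in the vector control libraries: it fell by 0.78 (SE 0.08, limma adjusted p 7.99e-06). Like ABCC3, it was lower in the knockdown libraries than in the knockdown control libraries too, a difference that did not pass for either gene. ABCB10 had 7.20 and 9.10 FPKM in the knockdown libraries, against 5.31 and 5.38 FPKM in the vector control libraries: it rose by 0.52 (SE 0.10, limma adjusted p 7.41e-04). ABCA3 had 9.26 and 10.1 FPKM in the knockdown libraries, against 8.61 and 8.06 FPKM in the vector control libraries (0.19, SE 0.07, limma adjusted p 0.0360). ABCF2, at 5.30 and 5.56 FPKM in the knockdown libraries, against 6.72 and 6.02 FPKM in the vector control libraries, fell by 0.20 (SE 0.08, limma adjusted p 0.0413). ABCA3 missed the threshold without knockdown library 2 (limma adjusted p 0.216) or vector control library 2 (0.176), ABCF2 without either knockdown library (0.0698 and 0.169) or vector control library 1 (0.258), and ABCA12 without knockdown library 1 (0.0961) or vector control library 1 (0.0634).

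The effects of overexpression and knockdown, each against its own control, were set against each other in the same limma fit. Of the members, 3 differed (12.5%), beside 10.2% of all genes (6.19% higher and 4.02% lower), all with a lower value for overexpression: ABCD3 (-0.40, SE 0.10, adjusted p 0.0238), ABCC2 (-0.28, SE 0.07, adjusted p 0.0230) and ABCE1 (-0.25, SE 0.06, adjusted p 0.0256). For ABCD3 the overexpression effect was -0.12 and the knockdown effect 0.29, for ABCC2 they were -0.03 and 0.25, and for ABCE1 -0.04 and 0.21. Under overexpression itself 0 members passed. The count was between 0 and 2 whichever library was left out. With the correction for length and GC content, 0 members differed, beside 6.92% of all genes, with limma adjusted p values of 0.0758 for ABCC2, 0.145 for ABCD3 and 0.258 for ABCE1.

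Over all genes, transcript base composition and length moved with these changes, and over the members base composition did. Over 10632 tested genes with an annotated length, the rank correlation of the log2 fold change with transcript GC content was 0.52 in knockdown control minus vector control, 0.41 in knockdown minus vector control, -0.45 in knockdown minus knockdown control and 0.13 in overexpression minus vector control. That with transcript length was -0.51, -0.48, 0.27 and -0.07 in the same order. Across the 24 tested members, which share libraries and differ in level and length, it was 0.62, 0.49, -0.56 and 0.40 for GC content, and -0.16, -0.17, 0.00 and -0.06 for length. With mean level, as a further description, the members' change had a rank correlation of -0.67 in knockdown control minus vector control. The tested members with the lowest GC content, ABCD3 at 37.6% and ABCE1 at 38.4%, fell between the controls, and ABCB9 at 63.3% and ABCC10 at 58.7% rose. Others of high GC content did not pass: ABCA7 (64.7%), ABCA2 (63.7%), ABCA3 and ABCB8 (60.4% each) and ABCB6 (59.3%). ABCB10 rose at 45.3%.

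**Figure D3:**
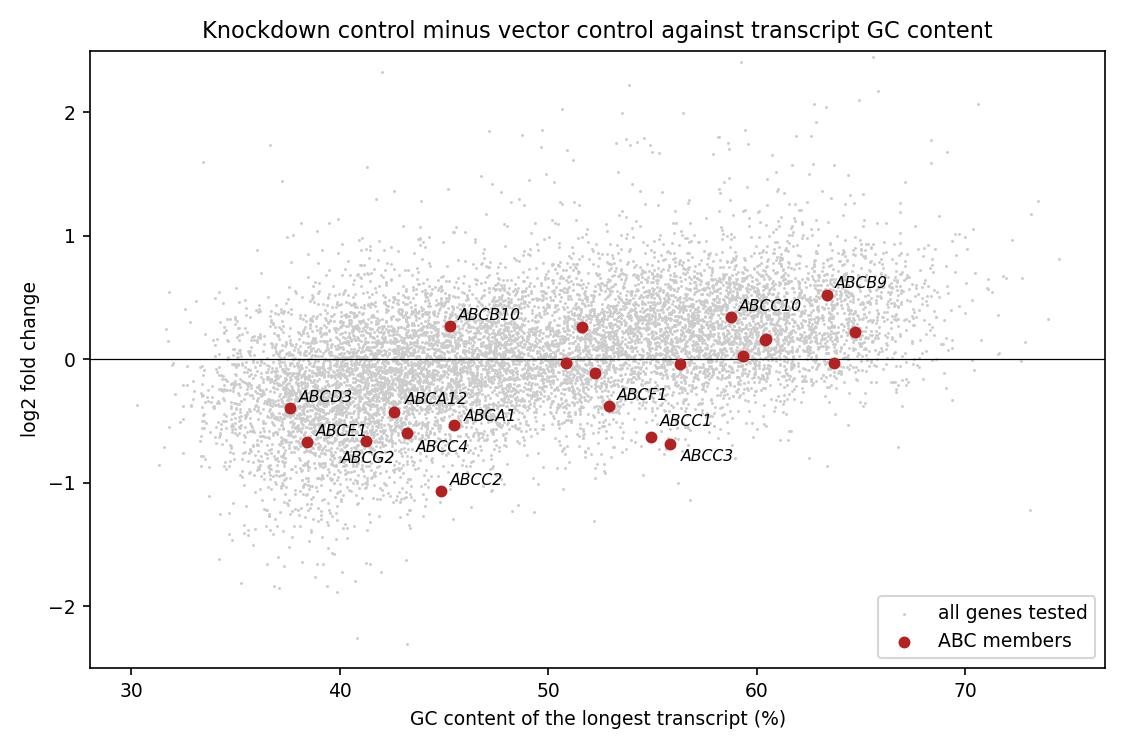
Log2 fold change in knockdown control minus vector control against the GC content of the longest transcript, for all genes tested (grey) and 22 ABC members (red), with called members named except ABCD4; 7 genes lie outside the plotted range. ABCC1 and ABCC3, at 54.9% and 55.8% GC, stand at -0.63 and -0.69, and ABCD3 and ABCE1, the plotted members of lowest GC content, at -0.40 and -0.67.

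After a correction of each library for a smooth trend over length and GC content, the drug exporters kept their falls between the controls. ABCC2 was at -0.84, ABCC3 at -0.70, ABCC1 at -0.57, ABCG2 at -0.39 and ABCC4 at -0.29, all with a limma adjusted p below 0.05. Of the 14 members called between the controls, 10 remained and 13 were called in all, beside 59.3% of all genes. Those called after the correction and not before were ABCF2, ABCF3 and ABCB6 (-0.23, limma adjusted p 0.00972), all lower. ABCA1 moved to -0.16 (limma adjusted p 0.0916), ABCD3 to -0.06 (0.457), ABCD4 to 0.13 (0.213) and ABCA12 to 0.02 (0.846). In knockdown minus knockdown control, 2 of the 7 calls remained, ABCC2 at 0.18 and ABCB9 at -0.37, and 5 members were called in all, beside 16.7% of all genes. ABCC4 and ABCG2 moved to 0.10, ABCE1 to 0.09, ABCD3 to 0.16 and ABCC10 to -0.25, with limma adjusted p from 0.0663 to 0.227. The members called after the correction and not before were ABCA1 (-0.31, limma adjusted p 0.0159), ABCA2 (0.22, 0.0416) and ABCC1 (0.15, 0.0194). In knockdown minus vector control 11 of 12 calls remained, without ABCA12 (0.01), and 13 members were called in all, beside 55.4% of all genes called. Those called there after the correction and not before were ABCF3 (-0.34, limma adjusted p 0.00309) and ABCA2 (0.18, 0.0384).

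The scaling of the libraries mattered too. FPKM summed to between 421591 and 437924 in the knockdown and knockdown control libraries, against 371927 to 379733 in the overexpression and vector control libraries. Rescaling each library to the same sum (TPM scaling) shifted the median of all genes by -0.20 in knockdown control minus vector control and by -0.16 in knockdown minus vector control. Between the controls this gave 1 higher and 15 lower members in place of 4 and 10, and 11 of the 14 calls remained, beside 70.1% of all genes called. Median-of-ratios scaling gave 2 higher and 11 lower, beside 68.4% of all genes. Under TPM scaling ABCB10 (0.08, limma adjusted p 0.477), ABCD4 (0.07, 0.506) and ABCC10 (0.19, 0.0762) no longer passed as higher in knockdown control cells, while ABCB9 (0.40) did. In knockdown minus knockdown control TPM scaling gave 6 higher and 1 lower member in place of 5 and 2, beside 24.7% of all genes. In knockdown minus vector control ABCA3 no longer passed (0.04, limma adjusted p 0.708). Among the members called lower there under TPM scaling and not before were ABCD3 (-0.28, limma adjusted p 0.00541) and ABCF3 (-0.35, 0.00195). The 5 drug exporters that fell between the controls lay between -0.81 and -1.29 under TPM scaling.

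The 20 members under the minimum, which include the cholesterol transporters ABCG1 and ABCG5 and the bile salt exporter ABCB11, were followed by their recovered reads. Their mean levels ran from 0.000448 FPKM for ABCB5, with 1 read in all, to 0.849 FPKM for ABCA5. The others were ABCA4, ABCA6, ABCA8, ABCA9, ABCA10, ABCA13, ABCB1, ABCB4, ABCC6, ABCC8, ABCC9, ABCC11, ABCC12, ABCD2 and ABCG4. ABCB1 had 8 and 11 reads in the knockdown libraries, against 26 and 60 reads in the knockdown control libraries, and 41 and 37 reads in the overexpression libraries, against 30 and 19 reads in the vector control libraries. Both knockdown libraries were the lowest of the 8, and the overexpression and vector control libraries did not overlap. In a limma fit without the minimum the limma adjusted p was 0.0933 for knockdown minus knockdown control and 0.964 for overexpression minus vector control. At these counts, P-glycoprotein transcripts were close to the limit of what the libraries could show. A count of 0 in a library allows up to 3 reads, for counting error only.

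On chromosome 17, ABCA8, ABCA9, ABCA6, ABCA10 and ABCA5 lie side by side on the minus strand between positions 68867292 and 69327244 (GRCh38, GENCODE release 29). ABCA9 had 1 read in each knockdown library, against 57 and 53 reads in the knockdown control libraries, and 0 and 6 reads in the overexpression libraries, against 0 and 9 reads in the vector control libraries. ABCA6 had 0 and 4 reads in the knockdown libraries and 27 and 23 reads in the knockdown control libraries, and it was at 0 in the overexpression and vector control libraries. ABCA10 had 13 and 21 reads in the knockdown libraries, 90 and 124 reads in the knockdown control libraries, 33 and 26 reads in the overexpression libraries and 16 and 41 reads in the vector control libraries. All 3 genes were highest in the knockdown control libraries. Low genes in general registered more often there: 77.6% and 79.1% of the 6408 genes under the minimum were above 0, against 63.7% to 65.6% in the others. How many of those genes shared the pattern of the 3 was not counted.

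The neighbours ABCA5 and ABCA8 did otherwise. ABCA5 had 248 and 242 reads in the knockdown libraries, 219 and 223 in the knockdown control libraries, 318 and 356 in the overexpression libraries and 348 and 360 in the vector control libraries, and ABCA8 had between 0 and 6 reads in every library. Far from this cluster, ABCC12 had 1 and 3 reads in the knockdown libraries, against 59 and 29 reads in the knockdown control libraries, and ABCC9, a subunit of ATP-sensitive potassium channels, had 20 and 13 reads, against 64 and 79 reads. The ends of ABCA10 and ABCA5 overlap, ABCC6 has near-identical pseudogene copies, and no source used here states how such reads were assigned.

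In the limma fit without the minimum, over all 17056 genes, 13.3% of genes and 14 of 44 members were called in knockdown minus knockdown control. Of the members under the minimum, ABCA6, ABCA9, ABCA10, ABCC6, ABCC9 and ABCC12 were called lower. Between the controls ABCA6, ABCA9, ABCA10, ABCC9 and ABCC12 were called higher and ABCA5 and ABCG1 lower, in all 19 of 44 members, beside 47.5% of all genes called. More low genes registered in the knockdown control libraries in general. Of the 6408 genes under the minimum, 77.6% and 79.1% were above 0 in the knockdown control libraries, against 63.7% to 65.6% in the other libraries. The part of that gap in the members' values was not tested.

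**Figure D4:**
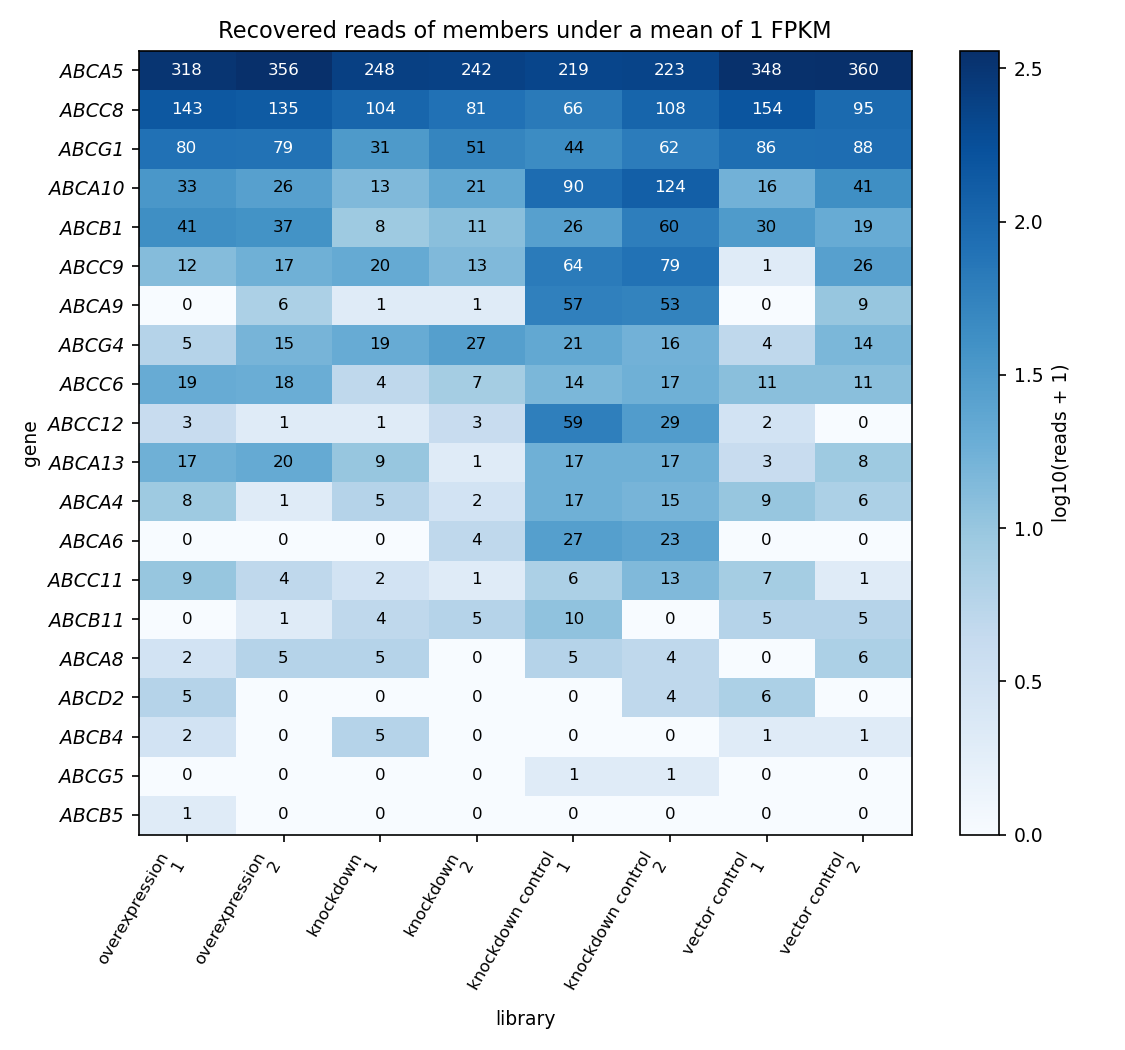
Recovered reads of the 20 members under a mean of 1 FPKM in each of the 8 libraries, with the read number in each cell and colour for log10(reads + 1). ABCA10, ABCA9, ABCA6, ABCC9 and ABCC12 are highest in the knockdown control libraries, and ABCB1 is lowest in the knockdown libraries.

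Genes that work with the family were read from 7 lists. In overexpression minus vector control 0 genes of any list were called by limma, beside 0.0657% of all genes. The counts of the lists stand beside 36.8% of all genes called higher and 31.8% lower in knockdown control minus vector control, and 11.3% higher and 10.9% lower in knockdown minus knockdown control. The antigen-processing peptide transporters TAP1 and TAP2, ABC proteins by structure but not by symbol, both fell in knockdown minus knockdown control. TAP1 had 21.4 and 20.4 FPKM in the knockdown libraries, against 28.6 and 30.0 FPKM in the knockdown control libraries (-0.47, SE 0.05, limma adjusted p 8.18e-05), and TAP2 fell by 0.21 (SE 0.07, limma adjusted p 0.0396). Between the controls TAP1 rose by 0.35 and TAP2 fell by 0.19.

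Of 15 tested transcription regulators with known targets in the family, 7 were called higher and 6 lower in knockdown control minus vector control, beside 68.6% of all genes called, and 2 higher and 1 lower in knockdown minus knockdown control, beside 22.2%. HIF1A, the hypoxia regulator, fell by 1.21 between the controls and AHR, the aryl hydrocarbon receptor that induces ABCG2, by 0.90. Of 9 tested genes of glutathione supply, on which ABCC1 and ABCC2 draw for conjugates, 3 were called higher and 4 lower between the controls (68.6% of all genes called), and 4 higher and 2 lower in knockdown minus knockdown control (22.2%). GCLC, which makes the first step of glutathione synthesis, had 74.3 and 75.4 FPKM in the knockdown libraries, against 53.7 and 49.3 FPKM in the knockdown control libraries (0.53, SE 0.05, limma adjusted p 9.49e-06). In the same comparison SLC3A2 fell (-0.26, SE 0.03, limma adjusted p 2.15e-04). SLC7A11, the cystine importer, fell by 1.02 between the controls, while GSTP1 rose by 0.70.

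The remaining lists gave mixed directions, and their counts of calls are likewise to be read beside 68.6% of all genes called between the controls (31.8% lower) and 22.2% in knockdown minus knockdown control. Of 10 other drug transport genes, 3 were higher and 2 lower between the controls and 2 higher and 1 lower in knockdown minus knockdown control. Of 6 apolipoprotein and sterol genes, 4 were higher and 1 lower between the controls, with NPC2, a lysosomal cholesterol carrier, at 0.99, and 0 higher and 1 lower in knockdown minus knockdown control. Of 14 peroxisome genes, 5 were higher and 3 lower between the controls and 2 higher and 1 lower in knockdown minus knockdown control. In the latter HSD17B4, an enzyme of peroxisomal fatty acid oxidation, rose by 0.36, and PEX16 fell (-0.57). Of 12 ribosome recycling and initiation genes, partners of ABCE1 and ABCF1, 3 were higher and 8 lower between the controls, with EIF3A at -1.11, and 1 higher and 1 lower in knockdown minus knockdown control. Medians of these 4 lists between the controls were 0.14, 0.30, 0.10 and -0.21, beside 0.04 over all genes.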

How the data were processed

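Total RNA of 8 A549 libraries was sequenced by the submitters. Per the labels, the authors deposited FPKM per gene symbol. Processing notes of the submitters list, without roles, R 3.2.0, HTSeq, HISAT2 and featureCounts beside hg38 (GRCh38). Annotation and strand use are not stated in the sources used here. The 10648 of 17056 genes averaging 1 FPKM or more were tested on log2(FPKM + 1) with limma 3.58.1 in R 4.3.3 (eBayes with trend, two-sided, all 4 groups in the same fit, 4 residual degrees of freedom). Calls are adjusted p below 0.05 (Benjamini-Hochberg, over all genes tested). Fold changes on this scale understate the change of low genes, and an exact permutation test of 2 against 2 libraries cannot give a p below 0.333. Whole reads were recovered from the FPKM steps within a tolerance of 0.02 reads for 100.0% of genes, up to a common factor in genes with few reads. Within groups, the 2 libraries differed beyond counting noise (chi-square per degree of freedom 4.40 to 4.65). GENCODE release 29 gave positions, transcript lengths and GC content. Alternatives changed the pseudocount, minimum, scaling, libraries in the fit, replicate block, test, and length and GC correction. Of the tested members, 2 enter all counts and are not reported here by name. The others are given by value or range, with library values for members called in at least 1 comparison and for ABCB1, ABCC1, ABCC2, ABCC3 and ABCG2, and of each list at most 2 genes a comparison. Members, lists and roles were chosen with earlier results of these data known. The fits were tested on simulated data.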

Additional observations from a re-analysis of the deposited data

How the results depend on the processing

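In overexpression minus vector control 0 members were called in each of the 11 alternatives other than leaving out a library, beside at most 0.254% of all genes (voom on recovered reads). In knockdown minus knockdown control the 7 calls of 24 members (22.2% of all genes) became 14 of 44 members without the minimum level (13.3% of all genes). With voom on recovered reads, 11 of 24 were called, beside 27.3% of all genes. This voom fit was chosen after seeing the data, with median-of-ratios in place of TMM library sizes. Some calls were lost when a library of either group was left out. The counts between the controls (14 called, beside 68.6% of all genes) and in knockdown minus vector control (12, beside 62.9%) stayed within 1.5 times in every alternative. For the difference of effects, 3 calls (beside 10.2% of all genes) became 0 with the length and GC correction (6.92% of all genes) and 1 with that correction and the replicate block. They became 5 with voom, and fewer than 3 when a library was left out. Signs turned for ABCG2 in overexpression minus vector control without overexpression library 2 (range over left-out libraries -0.04 to 0.01), for ABCA12 after the length and GC correction, with or without the block, between the controls (0.02) and in knockdown minus vector control (0.01), and for ABCC3 in the difference of effects, which ranged from -0.07 to 0.05 over left-out libraries and was above 0 without overexpression library 2, knockdown library 1, knockdown control library 2 or vector control library 1. The replicate numbers did not pair the libraries (correlations of deviations between -0.06 and 0.06). With the replicate block the counts were 0 for overexpression minus vector control (0.0751% of all genes), 8 for knockdown minus knockdown control (21.7%) and 15 between the controls (68.7%). They were 12 for knockdown minus vector control and 3 for the difference of effects, where the fit without the block called 62.9% and 10.2% of all genes. The 12 were not the same members: with the block ABCF2 no longer passed (limma adjusted p 0.0517) and ABCF3 was called lower (-0.18, 0.0203). A test on edgeR counts was planned and not run, since the deposited unit is FPKM. With 2 libraries a group, small changes of members near 1 FPKM were the least certain.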
